A study of Mus musculus with 12 samples.

Results

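Amino acids enter adipocytes through carriers of the plasma membrane, and 8 genes for such carriers were followed in inguinal white adipose tissue (iWAT): Slc7a5, Slc3a2, Slc7a1, Slc7a6, Slc7a10, Slc38a2, Slc1a4 and Slc1a5. They were chosen by name, all 8 are among the 14159 listed genes, and all 8 passed the filter on low values that left 13404 genes for testing. Polyadenylated RNA of whole iWAT was sequenced in 12 libraries, with 3 biological replicates, numbered 0, 1 and 2, in each of 4 groups. The groups cross genotype with temperature, so that both the response to 24 h of cold and its dependence on adipocyte ATF4 can be compared. Atf4AKO mice carry floxed Atf4 alleles together with Adipoq-Cre, and Atf4WT mice are their Atf4fl/fl littermates, all on a C57BL/6 background. Mice of each genotype were either kept at room temperature (RT, 22 °C in the study's methods) or exposed to 5 °C for 24 h. The age and sex of the sequenced mice are not given in the sources used here. Adipoq-Cre acts in adipocytes, so the other cells of iWAT keep Atf4 in Atf4AKO mice. In bulk RNA, fewer cells of a type and less RNA per cell cannot be told apart.

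SLC3A2 (also called CD98 heavy chain or 4F2hc) is a single-pass glycoprotein that brings light chains of the SLC7 family to the cell surface, and SLC7A5 (LAT1), SLC7A6 (y+LAT2) and SLC7A10 (Asc-1) are such light chains. SLC7A1 (CAT-1) carries cationic amino acids such as arginine and lysine without a heavy chain, SLC38A2 (SNAT2) takes up neutral amino acids together with sodium, and SLC1A4 (ASCT1) and SLC1A5 (ASCT2) exchange small neutral amino acids, serine and glutamine among them. Several of these genes are textbook targets of ATF4, the transcription factor of the integrated stress response, and leucine and arginine that enter through them are sensed by mTORC1 at the lysosome. SLC7A10 is known as a surface marker of white adipocytes.

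ATF4 and C/EBP family proteins bind composite elements with the core TGATGNAA, which was searched on both strands of RefSeq promoter sequences (GRCm38.p6, 250 bases before to 50 after each start). Promoters of 6 of the 8 genes, without Slc7a5 and Slc1a5, were in that table, and 1 of these 6 genes, Slc1a4, held the core. It is shown because Slc1a4 was also the one transporter gene past the differentially expressed gene (DEG) threshold between genotypes at RT. The sequence covers 250 bases before the start and the first 4 bases after it on the minus strand, chr11:20332710-20332963, and the capitals mark the core as read on its complementary strand, from position -4.
Slc1a4: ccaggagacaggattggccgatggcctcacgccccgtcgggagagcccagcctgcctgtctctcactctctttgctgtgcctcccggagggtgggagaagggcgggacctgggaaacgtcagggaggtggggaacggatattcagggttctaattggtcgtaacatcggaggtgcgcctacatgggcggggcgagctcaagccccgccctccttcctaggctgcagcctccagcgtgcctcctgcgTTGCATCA
Of the 32851 promoters in the table, 1304 (3.97%) held this core, and of the 14298 promoters of listed genes 335 (2.34%) did. The full cyclic AMP response element TGACGTCA was in none of the members' promoters and in 1.79% of all. A match in these letters is a description and not a binding site.

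The libraries held 25719476 to 29105147 reads on listed genes, and chi-square tests between replicates of 1 group found differences beyond counting noise in every pair. The 10 white adipocyte markers, with Adipoq, Plin1 and Cfd among them, were all listed and summed to between 1060751 and 1606928 normalized counts per library. Atf4, the gene targeted by Cre, was present at 5669, 4670 and 4107 normalized counts in Atf4WT and 1594, 1470 and 1639 in Atf4AKO iWAT at RT, and at 7644, 7511 and 5756 in Atf4WT and 1578, 788 and 1180 in Atf4AKO iWAT after cold exposure. The genotypes did not overlap, and the log2 fold change was -2.60 after cold exposure (adjusted p = 0.000644, limma) and -1.61 at RT (adjusted p = 0.0762, limma). Of the B and T cell markers, 31 of 32 are listed, and their mean log2 value (the lymphocyte score) was 7.04 to 9.53 in cold-exposed Atf4WT iWAT against 3.46 to 5.08 in cold-exposed Atf4AKO iWAT, 3.99 to 6.91 in Atf4WT and 4.20 to 5.25 in Atf4AKO iWAT at RT. Fibroblast and progenitor markers (8 of 8 listed) summed to 120994 to 179065 normalized counts at RT and 32405 to 83376 after cold. Muscle markers (6 of 8 listed) reached 93260 in Atf4WT RT replicate 2 and 33612 in Atf4WT cold replicate 0, against 1451 to 5334 in the other libraries. The part of either list in the transporter results was not tested.

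Compared per length of exon, the 8 mRNAs differed widely in level. Slc1a5 stood first with a mean of 18900 normalized counts per kb over the 12 libraries (lowest 13900, highest 22917), and it alone held 80.0% of the members' normalized counts and ranked 23 of 14159 genes by mean count. Slc7a10 followed at 4752 per kb and Slc3a2 at 1520 per kb, and in all 12 libraries each of these 3 genes was above the next. Slc7a6 at 338 and Slc38a2 at 266 per kb overlapped in range, with Slc7a6 higher in 11 of 12 libraries. Slc1a4, Slc7a5 and Slc7a1 lay lowest, with means of 25.6, 24.7 and 19.4 per kb, and their order was not distinct: Slc1a4 was above Slc7a5 in 6 of 12 libraries and Slc7a5 above Slc7a1 in 8 of 12. The 3 lowest genes thus rest on few reads. Slc7a5 had 29 reads in its lowest library (Atf4AKO cold, replicate 1), for which the exact Poisson 95% interval is 19.4 to 41.6 reads, and Slc1a4 had 45 reads in its lowest (interval 32.8 to 60.2). These intervals cover counting error only. 

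**Figure D1:**
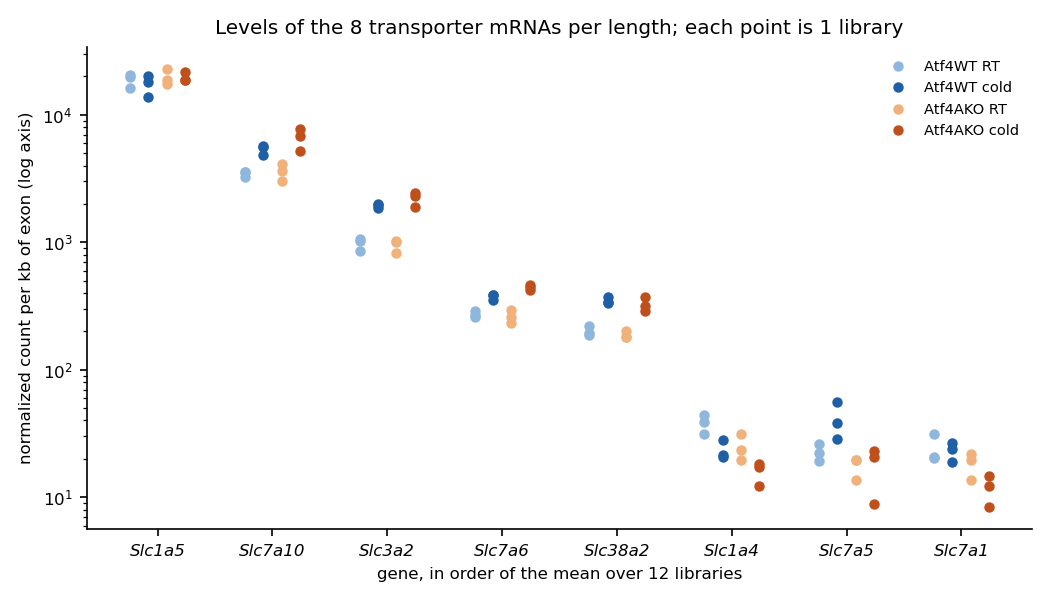
Normalized counts per kb of exon (log axis) of the 8 transporter genes, in order of their mean; each point is 1 of 12 libraries, coloured by group. Slc1a5, Slc7a10 and Slc3a2 stand apart from each other and from the rest, while Slc1a4, Slc7a5 and Slc7a1 overlap near 20 normalized counts per kb.

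Cold exposure moved the transporters in different directions. In Atf4WT iWAT, Slc3a2, Slc7a6, Slc7a10 and Slc38a2 rose and Slc1a4 fell (5 of 8 at an adjusted p under 0.05, against 31.9% of all tested genes, with 17.0% higher and 14.9% lower). By the study's DEG rule, a fold change over 1.5 with an unadjusted p under 0.05, 5 of 8 passed, 4 higher (Slc7a5, Slc3a2, Slc7a10, Slc38a2) and 1 lower (Slc1a4), against a background of 21.2% of all tested genes (10.9% higher and 10.3% lower). In Atf4AKO iWAT the same rule gave 6 of 8, 4 higher (Slc3a2, Slc7a6, Slc7a10, Slc38a2) and 2 lower (Slc7a1, Slc1a4), against 17.2% (8.30% higher and 8.92% lower). At an adjusted p under 0.05 it was 4 of 8 in Atf4AKO iWAT, each of them higher, against 25.9% (14.8% higher and 11.0% lower). The median log2 fold change of the 8 genes was 0.55 in Atf4WT and 0.38 in Atf4AKO iWAT, where the medians of all tested genes were 0.00 and -0.03. The 3 libraries of a group did not overlap with those of the other group for 6 of 8 genes in Atf4WT iWAT, 5 higher and 1 lower, where 46.8% of all tested genes did not (23.9% higher and 22.9% lower). In Atf4AKO iWAT it was 5 of 8, 4 higher and 1 lower, where 41.7% of all tested genes did not overlap (21.7% higher and 19.9% lower).

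**Figure D2:**
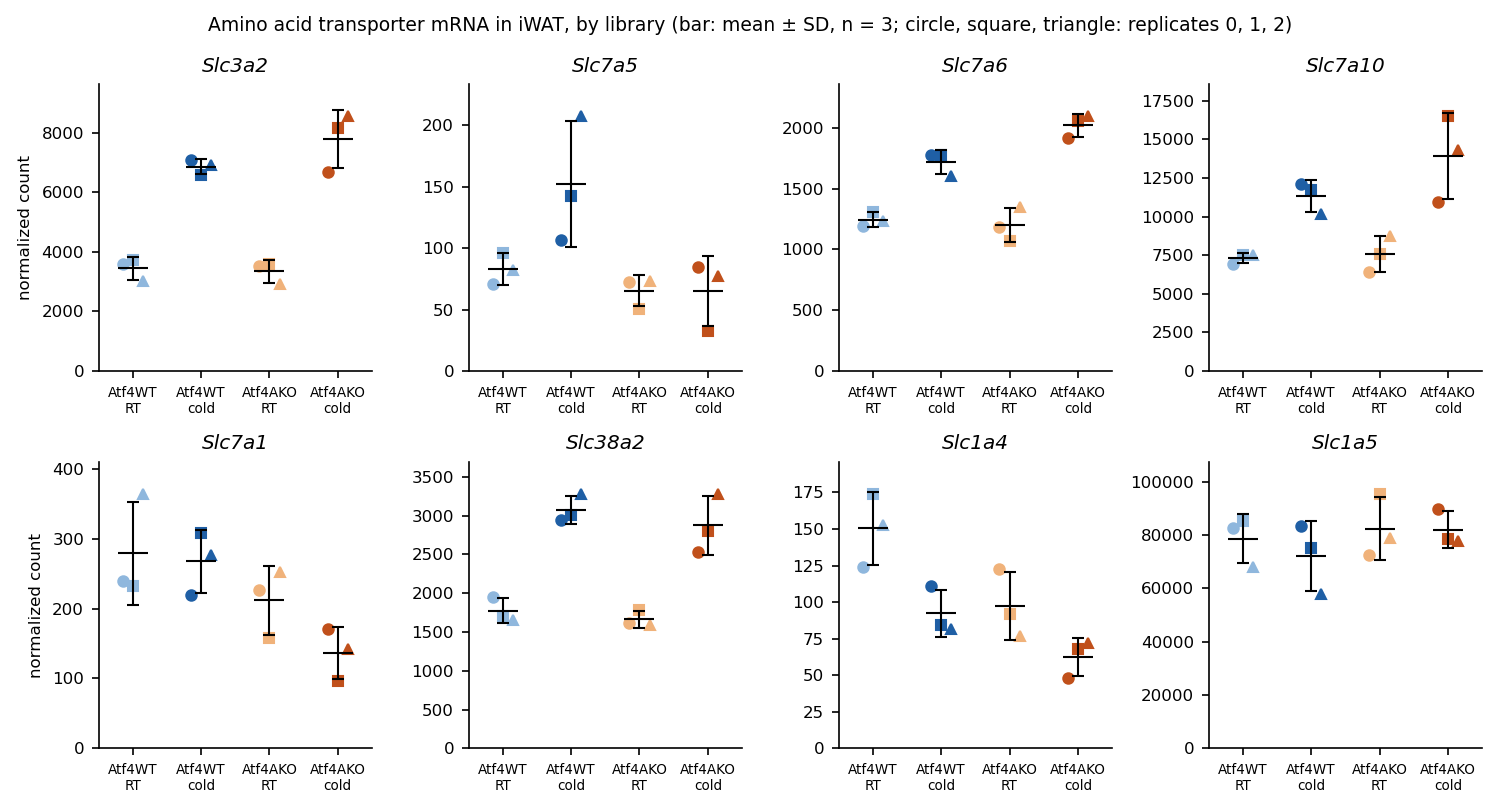
Normalized counts of each transporter gene by library; points are libraries (circle, square and triangle for replicates 0, 1 and 2), and black bars give the mean ± SD of 3. Slc3a2, Slc7a6, Slc7a10 and Slc38a2 are higher after cold in both genotypes without overlap, whereas Slc7a5 and Slc7a1 are lowest in 1 cold-exposed Atf4AKO library.

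Slc3a2 (chr19:8706882-8723369, minus strand, GRCm38), the shared heavy chain, had the largest cold response of the 8 genes by limma in both genotypes. At RT its normalized counts were 3587, 3744 and 3019 in Atf4WT and 3541, 3586 and 2915 in Atf4AKO iWAT. After cold exposure they were 7093, 6576 and 6911 in Atf4WT and 6694, 8150 and 8550 in Atf4AKO iWAT. Every cold-exposed library was above every library at RT, and the genotypes overlapped at each temperature. The fold change was 2.00 in Atf4WT (log2 1.00 ± 0.12, SE; adjusted p = 0.000245) and 2.33 in Atf4AKO iWAT (log2 1.22 ± 0.12; adjusted p = 8.73e-05, limma). The difference of the responses was 0.22 on the log2 scale with a 95% interval from -0.15 to 0.59 (adjusted p = 0.989). The call held in each of the 17 alternatives in either genotype, with a log2 fold change of 0.90 to 1.32 in Atf4WT iWAT.

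Slc7a10 (chr7:35186385-35201114, plus strand), the light chain for small neutral amino acids and the most abundant of the light chains here, rose as well. Its counts at RT were 6917, 7496 and 7495 in Atf4WT and 6382, 7590 and 8733 in Atf4AKO iWAT, and after cold they were 12122, 11711 and 10163 and, in Atf4AKO iWAT, 10963, 16487 and 14309. Cold-exposed libraries were above those at RT in both genotypes, with a log2 fold change of 0.63 ± 0.15 (SE, adjusted p = 0.00966) in Atf4WT and 0.87 ± 0.15 (adjusted p = 0.00225, limma) in Atf4AKO iWAT. In Atf4WT iWAT the value lies close to the fold threshold and fell under it (0.58) when cold replicate 0 was left out. The 3′ end of Slc7a10 shares 377 of its 2111 exon bases (17.9%) with exons of Lrp3 on the other strand, and the strand setting of the counting is not given in the sources used here. Lrp3 had 1062 to 1729 normalized counts over the 12 libraries, below Slc7a10 in each.

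Slc7a6 (chr8:106168857-106198706, plus strand), the light chain that exchanges cationic for neutral amino acids, had 1193, 1310 and 1231 normalized counts in Atf4WT and 1181, 1069 and 1350 in Atf4AKO iWAT at RT. After cold exposure it had 1776, 1777 and 1607 in Atf4WT and 1914, 2054 and 2094 in Atf4AKO iWAT. The 3 cold-exposed Atf4AKO libraries were thus the highest of all 12. Slc7a6 rose 1.38-fold in Atf4WT iWAT (log2 0.47 ± 0.09, SE; adjusted p = 0.00361), which is below the fold threshold of the DEG rule, and 1.69-fold in Atf4AKO iWAT (log2 0.76 ± 0.09; adjusted p = 0.000333, limma). The difference of the 2 responses was 0.29 (95% interval 0.01 to 0.57, unadjusted p = 0.0454), which did not pass adjustment over all genes (adjusted p = 0.700, limma).

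Slc7a5 (chr8:121881150-121907694, minus strand) is the light chain for leucine and other large neutral amino acids. Unlike its heavy chain Slc3a2, against which it was not tested, it passed the DEG threshold after cold in Atf4WT iWAT only. Its counts at RT were 70.7, 96.2 and 82.5 in Atf4WT and 72.5, 50.8 and 73.3 in Atf4AKO iWAT. After cold exposure Atf4WT iWAT had 107, 142 and 207, and Atf4AKO iWAT had 85.0, 32.9 and 77.4. The cold-exposed Atf4WT libraries were the 3 highest of the 12. Of the cold-exposed Atf4AKO counts, 85.0 and 77.4 lay above all Atf4AKO counts at RT, and 32.9 (replicate 1, 29 reads) lay below them. In Atf4WT iWAT the log2 fold change was 0.82 ± 0.36 (SE, unadjusted p = 0.0419 and adjusted p = 0.101, limma), past the DEG threshold but not past adjustment, and in Atf4AKO iWAT it was -0.10 ± 0.36 (adjusted p = 0.856). The Atf4WT call was lost without RT replicate 0 or 2 or cold replicate 1 or 2, with a log2 fold change down to 0.57. In Atf4AKO iWAT the value was 0.32 without cold replicate 1.

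One member made up most of the light chain mRNA. Over the 5 light chains that passed the filter (the 3 members with Slc7a7 and Slc7a8), Slc7a10 made up 86.8% to 93.2% of the summed counts per kb in the 12 libraries, Slc7a6 5.37% to 7.42% and Slc7a5 0.106% to 1.04%. The sum of these light chains was 4.08 ± 0.59 times (SD, n = 3) the level of Slc3a2 per kb in Atf4WT and 4.32 ± 1.12 times in Atf4AKO iWAT at RT. After cold exposure it was 3.05 ± 0.27 times in Atf4WT and 3.24 ± 0.34 times in Atf4AKO iWAT. These are ratios of mRNA and not of protein at the surface.

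Slc38a2 (chr15:96687392-96699730, minus strand), the sodium-coupled carrier, rose in both genotypes. At RT it had 1956, 1711 and 1655 normalized counts in Atf4WT and 1611, 1783 and 1589 in Atf4AKO iWAT, and after cold 2942, 3003 and 3285 in Atf4WT and 2534, 2808 and 3284 in Atf4AKO iWAT. No cold-exposed library overlapped with one at RT. The log2 fold changes were 0.80 ± 0.10 (SE, adjusted p = 0.000427) and 0.78 ± 0.10 (adjusted p = 0.000516, limma), and their difference was -0.01 with a 95% interval from -0.33 to 0.31.

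Slc7a1 (chr5:148327410-148399904, minus strand), the arginine and lysine carrier, had 239, 233 and 364 normalized counts in Atf4WT and 226, 157 and 252 in Atf4AKO iWAT at RT. After cold exposure it had 219, 308 and 276 in Atf4WT and 170, 96.4 and 142 in Atf4AKO iWAT. Atf4WT libraries overlapped between temperatures, and the log2 fold change was -0.04 with a 95% interval from -0.62 to 0.53. The highest count was in RT replicate 2, and without it the value was 0.17. That library had the most muscle marker counts and the highest lymphocyte score at RT (6.91). Cold replicate 0, which also had many muscle marker counts (33612), had the lowest Slc7a1 count of its group. The part of these markers in the value was not tested. In Atf4AKO iWAT the log2 fold change was -0.65 ± 0.26 (SE, unadjusted p = 0.0313 and adjusted p = 0.0923, limma), past the DEG threshold, although RT replicate 1 lay below cold replicate 0. That call was lost without RT replicate 0, RT replicate 2 or cold replicate 1, and the smallest of these values was -0.42. It was also lost with array weights (-0.55) and with the lymphocyte score as a covariate (-0.47), as the fold was then under the threshold.

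Slc1a4 (chr11:20302180-20332713, minus strand), the exchanger for serine, alanine and threonine whose promoter is shown above, was lower after cold. In Atf4WT iWAT it had 124, 174 and 153 normalized counts at RT and 111, 84.4 and 81.9 after cold, and the groups did not overlap. It fell by 0.70 ± 0.24 (SE) on the log2 scale (adjusted p = 0.0448, limma), and without RT replicate 1 the value was -0.58 and no longer past the DEG threshold. With the lymphocyte score as a covariate it was -0.38 (adjusted p = 0.549, limma). That score did not overlap between temperatures in Atf4WT iWAT, so score and cold cannot be told apart there. The adjusted p of the Slc1a4 cold response was under 0.05 in 9 of 17 alternatives. In Atf4AKO iWAT it had 123, 91.6 and 77.0 at RT and 47.8, 68.0 and 72.0 after cold, again without overlap. The log2 fold change there was -0.62 ± 0.24 (unadjusted p = 0.0244 and adjusted p = 0.0777, limma), past the DEG threshold only, and it was -0.44 without RT replicate 0 as well as without cold replicate 0.

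Slc1a5 (chr7:16781340-16798274, plus strand), the glutamine exchanger and by far the most abundant of the 8 mRNAs, showed no detectable cold response. Its counts at RT were 82836, 85230 and 68184 in Atf4WT and 72720, 95632 and 78972 in Atf4AKO iWAT, against 83428, 75212 and 58003 and, in Atf4AKO iWAT, 90016, 78548 and 77648 after cold. All 4 groups overlapped. The 95% interval of the log2 fold change was -0.53 to 0.26 in Atf4WT and -0.39 to 0.39 in Atf4AKO iWAT.

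**Figure D3:**
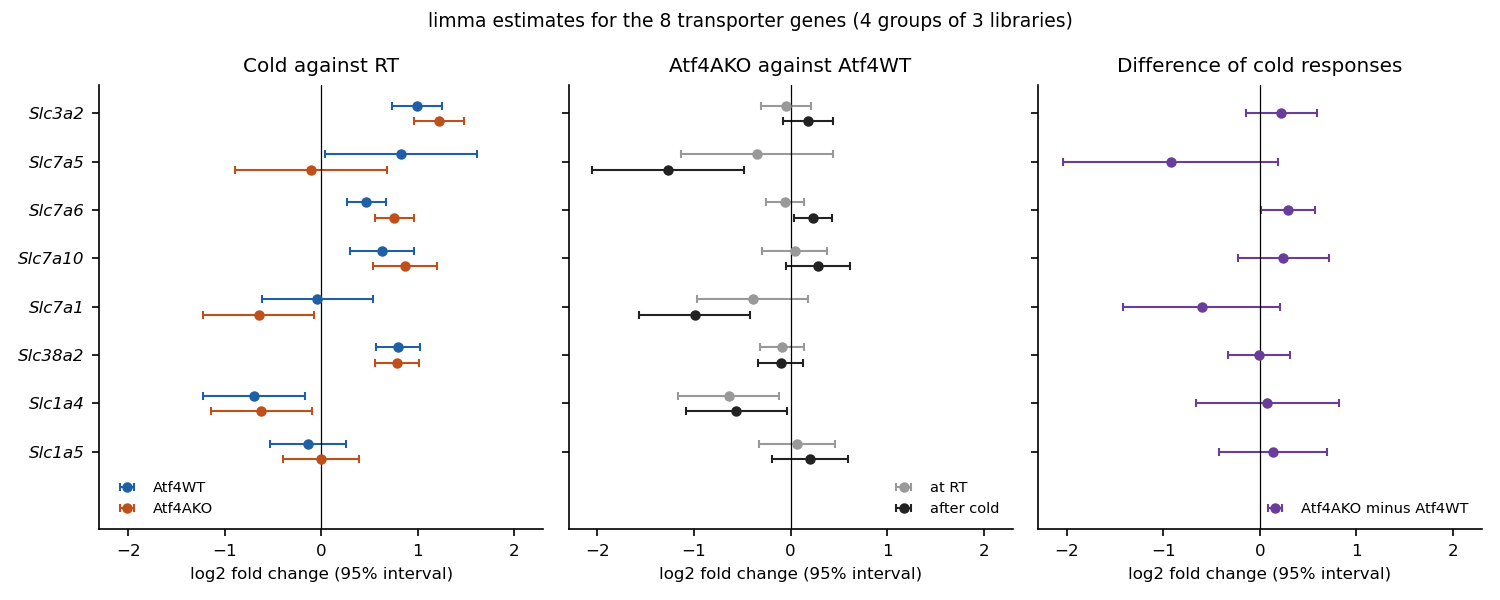
limma log2 fold changes with 95% intervals for the 8 genes: cold against RT in each genotype (left), Atf4AKO against Atf4WT at each temperature (middle), and the difference of the cold responses (right). Slc3a2, Slc7a6, Slc7a10 and Slc38a2 lie to the right of 0 after cold in both genotypes, and Slc7a5 and Slc7a1 lie furthest to the left between genotypes after cold.

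Between genotypes after cold exposure, 2 of the 8 genes passed the DEG threshold, both lower in Atf4AKO iWAT (background 6.40%, with 0.358% higher and 6.04% lower), and none passed an adjusted p under 0.05, which 0.0298% of all tested genes did by limma. At an unadjusted p under 0.05 there were 4, namely Slc7a5, Slc7a1, Slc1a4 and Slc7a6, next to 1571 of 13404 tested genes (limma). edgeR also gave 0 of 8 at an adjusted p under 0.05, next to 3 of 13415 genes. DESeq2 gave 2 of 8, Slc7a5 (adjusted p = 0.0266) and Slc7a1 (adjusted p = 0.016), next to 591 of 14159 genes. The 2 DEGs were Slc7a5 and Slc7a1. Slc7a5 averaged 152 ± 50.9 (SD, n = 3) normalized counts in Atf4WT and 65.1 ± 28.2 in Atf4AKO iWAT after cold, a log2 fold change of -1.27 ± 0.36 (SE, unadjusted p = 0.00442 and adjusted p = 0.131, limma). Slc7a1 averaged 268 ± 45.3 in Atf4WT and 136 ± 37.2 in Atf4AKO iWAT, a log2 fold change of -0.99 ± 0.26 (unadjusted p = 0.0029 and adjusted p = 0.106, limma). For both genes the 3 Atf4AKO libraries lay below the 3 Atf4WT libraries. The lowest of them was replicate 1 for both, and without it the values were -0.85 for Slc7a5 and -0.77 for Slc7a1. Macrophage markers (9 of 10 listed) were also lowest in that library, with a sum of 5239 normalized counts where the highest cold-exposed Atf4AKO library had 30767. The lymphocyte score (3.46), the mean log2 value of fibroblast and progenitor markers (10.8) and Atf4 (788) were lowest there too. Among cold-exposed Atf4WT libraries, replicate 1 had the lowest mean log2 value of macrophage markers (9.50) and the most Slc7a1 (308). The part of these markers in the result was not tested.

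Lymphocyte markers also differed between the genotypes after cold. For cold against RT in Atf4WT iWAT, their median log2 fold change was 4.45 (B cell) and 3.33 (T cell). That of Slc7a5 was 0.82 and that of Slc7a1 was -0.04 there. All 13 listed B cell and all 18 listed T cell markers passed the DEG threshold as lower in cold-exposed Atf4AKO than Atf4WT iWAT, against 6.04% of all tested genes. The summed level of these markers was 6895 to 29582 normalized counts in cold-exposed Atf4WT and 499 to 1651 in cold-exposed Atf4AKO iWAT. Other marker lists went both ways between genotypes after cold. White adipocyte markers were above 0 in 10 of 10 (median log2 0.21), macrophage markers in 2 of 9 (-0.27) and muscle markers in 0 of 6 (-1.52). The medians of endothelium, fibroblast and progenitor, and epithelium markers were 0.07, -0.05 and 0.10. No marker of these lists passed the DEG threshold. All 4 listed lymph node stroma markers, of 8 in the list, passed the DEG threshold as lower in cold-exposed Atf4AKO iWAT without overlap. Of all tested genes, 7.84% were lower without overlap. The sums of these markers were 2539 to 8317 normalized counts in Atf4WT and 1052 to 1632 in Atf4AKO iWAT. The 8 proliferating cell markers, all listed, had values below 0, 2 of them past the DEG threshold (6.04% of all tested genes as lower). Their median log2 fold change was -0.96, with sums of 1834 to 2667 in Atf4WT and 1566 to 2426 in Atf4AKO iWAT. The part of these lists in the transporter results was not tested. In cold-exposed Atf4WT iWAT the library with the highest lymphocyte score (9.53, replicate 2) had the most Slc7a5 and the one with the lowest (7.04, replicate 0) the least. Slc7a1 was lowest in the same replicate 0 and highest in replicate 1, which had a score of 9.08. With the lymphocyte score as a covariate the log2 fold change between genotypes after cold became -0.28 for Slc7a5 (adjusted p = 0.994) and 0.14 for Slc7a1 (adjusted p = 0.994, limma). In Atf4WT iWAT it turned the cold response of Slc7a5 to 0.02 and that of Slc7a1 to -0.96 (adjusted p = 0.0404, limma). The cold response of Slc3a2 was 1.32 in Atf4WT and 1.16 in Atf4AKO iWAT with the same covariate, and that of Slc38a2 was 0.91 and 0.76, all past an adjusted p of 0.05. After cold the score did not overlap between the genotypes, so score and genotype cannot be told apart in these libraries. Within Atf4WT iWAT it did not overlap between temperatures either (at most 6.91 at RT and at least 7.04 after cold). Score and cold thus cannot be told apart in the Atf4WT cold responses with this covariate.

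**Figure D4:**
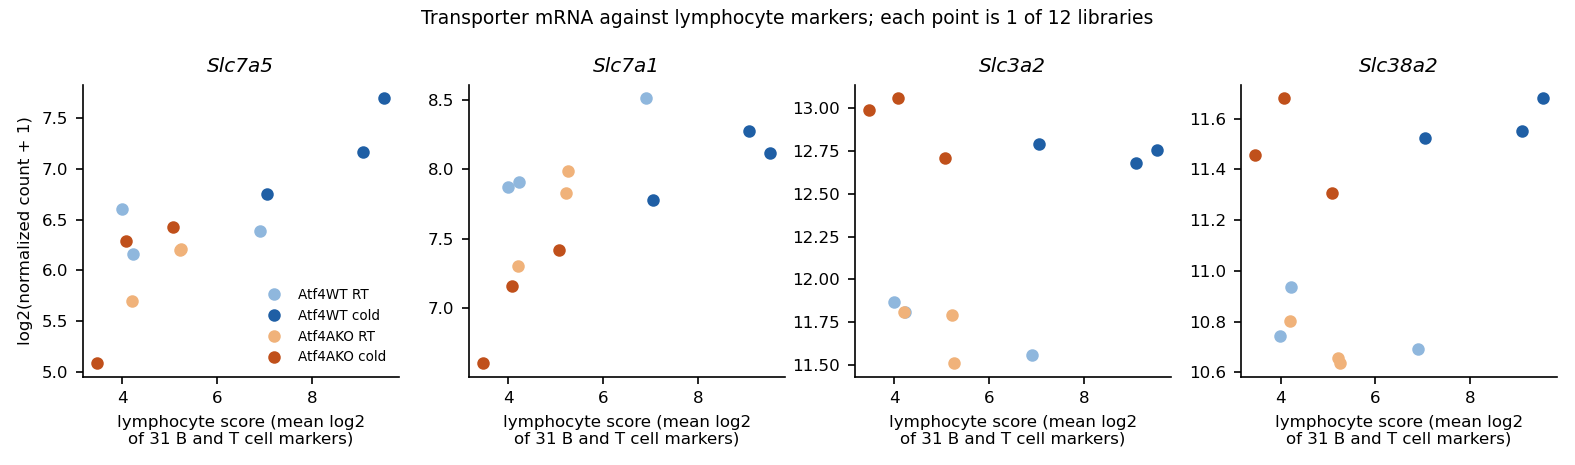
log2(normalized count + 1) of 4 transporter genes against the lymphocyte score, the mean log2 value of 31 B and T cell markers; each point is 1 of 12 libraries, coloured by group. Slc7a5 is highest in the 3 cold-exposed Atf4WT libraries with scores of 7.04 to 9.53, whereas Slc3a2 and Slc38a2 are high in cold-exposed libraries at both ends of the score.

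None of the other 6 genes passed the DEG threshold between genotypes after cold. Slc7a6 was higher in Atf4AKO iWAT without overlap (log2 0.23 ± 0.09, SE, unadjusted p = 0.0268 and adjusted p = 0.322, limma). Slc1a4 was lower without overlap, with 92.4 ± 16.1 (SD, n = 3) normalized counts in Atf4WT and 62.6 ± 13.0 in Atf4AKO iWAT, and its log2 fold change of -0.56 ± 0.24 (unadjusted p = 0.0374 and adjusted p = 0.374, limma) was just under the fold threshold. It passed the DEG threshold in 6 of 17 alternatives, namely by edgeR (-0.59), after 75th percentile scaling (-0.61), and without Atf4WT cold replicate 1 or 2 or Atf4AKO cold replicate 1 or 2 (-0.62 to -0.67). With the lymphocyte score as a covariate it was -0.96 (adjusted p = 0.990, limma), without a call. Together with Slc7a5 and Slc7a1, 4 of 8 genes had groups that did not overlap, 1 higher and 3 lower, against 16.5% of all tested genes (8.68% higher and 7.84% lower). For Slc3a2, Slc7a10, Slc38a2 and Slc1a5 the groups overlapped, and the 95% intervals were -0.08 to 0.44, -0.05 to 0.61, -0.33 to 0.12 and -0.20 to 0.59 on the log2 scale. The median log2 fold change of the 8 genes was 0.04, next to 0.05 for all tested genes.

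At RT, Slc1a4 was the one gene of the 8 past the DEG threshold, as lower in Atf4AKO iWAT (background 0.463%, with 0.179% higher and 0.283% lower). It averaged 150 ± 25.2 (SD, n = 3) normalized counts in Atf4WT and 97.1 ± 23.3 in Atf4AKO iWAT, and the lowest Atf4WT library (124.0) was barely above the highest Atf4AKO library (122.7). Its log2 fold change was -0.64 ± 0.24 (SE, unadjusted p = 0.0212 and adjusted p = 1.00, limma), and the call was lost without RT replicate 1 or 2 of either genotype. No gene of the 8 passed an adjusted p under 0.05 at RT, where 0.00746% of all tested genes did by limma (0 of 8 by edgeR and DESeq2 as well). At an unadjusted p under 0.05 it was 1 of 8, next to 205 of 13404 tested genes (limma). Groups without overlap were found for 1 of 8, Slc1a4 (6.30% of all, with 3.32% higher and 2.98% lower). Slc7a5 (-0.35 ± 0.36) and Slc7a1 (-0.39 ± 0.26) pointed lower in Atf4AKO iWAT, with overlap of the groups.

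The test of whether the cold responses differed by genotype passed the DEG threshold for none of the 8 genes, against 4.63% of all tested genes (0.463% above and 4.17% below 0). An unadjusted p under 0.05 was reached by 1 of the 8 (Slc7a6), next to 928 of 13404 tested genes (limma). At an adjusted p under 0.05 there was none of the 8 by limma, edgeR or DESeq2. Over all genes there were 0 of 13404 by limma, 0 of 13415 by edgeR and 128 of 14159 by DESeq2. For Slc7a5 the difference was -0.93 with a 95% interval from -2.04 to 0.19 (unadjusted p = 0.0945 and adjusted p = 0.848, limma), and for Slc7a1 it was -0.60 with an interval from -1.42 to 0.21. Thus a cold response of Slc7a5 past the DEG threshold in Atf4WT and not in Atf4AKO iWAT was not shown to differ between them.

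Among themselves, the genes fell into sets over the 12 libraries, which share groups and tissue and are given as a description. Slc3a2 was most alike Slc38a2 (Pearson r of 0.96 of log2 values) and also followed Slc7a6 (0.92) and Slc7a10 (0.90), while Slc7a5 followed Slc7a1 (0.70) and not Slc3a2 (0.16). After subtraction of the group means the r of Slc7a5 with Slc7a1 was 0.70. That of Slc3a2 was then 0.65 with Slc38a2, 0.11 with Slc7a10, -0.16 with Slc7a6, -0.30 with Slc7a5 and -0.76 with Slc7a1. Of all tested genes, Atrn (0.997), Plaa (0.994) and Arfgef2 (0.993) were the most alike Slc3a2. Itgb7 (0.947), Xlr4b (0.947) and Tmem156 (0.940) were the most alike Slc7a5, and Asxl1 (0.967), Il18r1 (0.917) and Wipf1 (0.914) the most alike Slc7a1. Cdkn1a (0.981), Gabpa (0.975) and Abraxas1 (0.970) stood closest to Slc7a6, and 1190007I07Rik (0.980), Cdc37l1 (0.977) and Rgl3 (0.976) to Slc7a10. For Slc38a2 the closest were Tbc1d22b (0.977), Nubp1 (0.972) and Akt1 (0.972). For Slc1a5 they were Ttyh2 (0.949), Acbd4 (0.922) and Blvrb (0.905). The likeness was weakest for Slc1a4, with Fhod3 (0.911), Tmem63a (0.897) and Folh1 (0.887).

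Other genes of amino acid transport were read from lists beside the members. Of the other CD98 light chains 4 of 6 are listed, as counted with the second heavy chain gene Slc3a1, and 2 passed the filter. Slc7a8 (LAT2), a further carrier of large neutral amino acids, fell in Atf4WT iWAT from 586 to 853 normalized counts at RT to 349 to 401 after cold (log2 -0.95 ± 0.15, SE; adjusted p = 0.00127, limma), the opposite direction to Slc3a2. In Atf4AKO iWAT its value was -0.31 ± 0.15 (adjusted p = 0.160, limma), and the difference of 0.64 had an unadjusted p of 0.0132 and an adjusted p of 0.50.

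Of 24 other plasma membrane transporters, 16 are listed and 15 were tested. In Atf4WT iWAT 5 passed the DEG threshold as higher and 2 as lower, and in Atf4AKO iWAT 4 and 2, next to 21.2% and 17.2% of all tested genes. Slc6a19, a carrier of neutral amino acids known from gut and kidney, rose from 2.76 to 7.42 normalized counts at RT to 53.4 to 76.0 after cold in Atf4WT iWAT (log2 3.44; adjusted p = 0.000373) and rose by 2.69 in Atf4AKO iWAT (adjusted p = 0.00157, limma). The taurine carrier Slc6a6 rose by 0.84 and 0.80 on the log2 scale in Atf4WT and Atf4AKO iWAT, and Slc36a2, a proton-coupled carrier of small amino acids, by 0.71 and 0.85. The glutamate carrier Slc1a3 (-0.89 and -1.01) and Slc43a1 (LAT3, -1.01 and -1.15) fell in both genotypes. Slc38a1 (SNAT1), the close relative of Slc38a2, rose in Atf4WT iWAT (log2 1.85 ± 0.57, SE; adjusted p = 0.0284) and had a value of -0.42 ± 0.57 in Atf4AKO iWAT. After cold, Slc38a1 was the 1 gene of the 15 tested in this list past the DEG threshold between genotypes, next to 6.40% of all tested genes. It had 166 to 574 normalized counts in Atf4WT and 23.8 to 99.9 in Atf4AKO iWAT (log2 -2.66 ± 0.57; adjusted p = 0.0667, limma), in the libraries that also differ in lymphocyte markers.

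**Figure D5:**
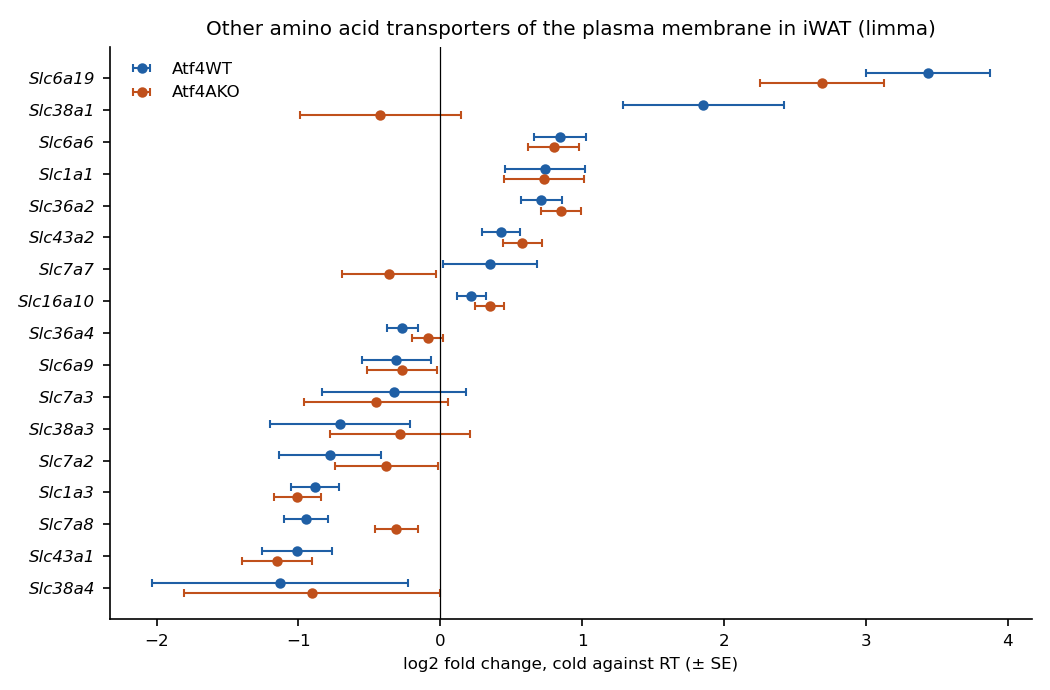
log2 fold change of cold against RT (± SE, limma) for 17 other amino acid transporter genes in Atf4WT and Atf4AKO iWAT, in order of the Atf4WT value. Slc6a19 lies furthest to the right in both genotypes, Slc38a1 only in Atf4WT by its value of 1.85, and Slc1a3 and Slc43a1 lie to the left in both.

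Downstream of the carriers, 25 of 29 genes of lysosomal amino acid transport and mTORC1 sensing were listed and tested. In Atf4WT iWAT 1 passed the DEG threshold as higher and 1 as lower, and in Atf4AKO iWAT 3 and 3, next to 21.2% and 17.2% of all tested genes. At an adjusted p under 0.05 it was 6 higher and 1 lower in Atf4WT and 7 higher and 2 lower in Atf4AKO iWAT, next to 31.9% and 25.9% of all tested genes. Mtor, the kinase of the complex, rose by 0.70 and 0.86 on the log2 scale, and Castor1, the arginine sensor, fell by 1.10 and 0.75 in Atf4WT and Atf4AKO iWAT, all at an adjusted p under 0.05 (limma). Rragc and Lamtor1, parts of the lysosomal scaffold of mTORC1, rose in both genotypes, by 0.49 (adjusted p = 0.0246) and 0.57 (adjusted p = 0.012) in Atf4WT and by 0.65 and 0.63 in Atf4AKO iWAT, where alone they passed the fold threshold. Sesn3 of the sestrin family fell by 0.79 in Atf4AKO iWAT and had a value of -0.35 in Atf4WT iWAT (adjusted p = 0.269, limma). After cold, Rragb was the 1 gene of the 25 in this list past the DEG threshold between genotypes, next to 6.40% of all tested genes. Its log2 fold change was -2.23 (adjusted p = 0.0775, limma), at 6.16 to 28.3 normalized counts in Atf4WT and 2.13 to 3.22 in Atf4AKO iWAT, which are few reads.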

How the data were processed

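Strand-specific libraries of polyadenylated RNA were sequenced by the authors, who cleaned the reads with SOAPnuke, aligned them to mm10 with STAR, counted unique alignments per gene with featureCounts and scaled the counts by DESeq2 size factors. The deposited values are therefore a normalized signal per gene, written here as normalized counts. Tool versions and the strand setting are not given in the sources used here. Division by the value of 1 read returned whole reads (100% of values within 0.001), with a minimum of 1 read per listed gene and library. Replicates are the biological replicates of the labels. The p-values weigh differences of group means against the spread between replicates, which the main limma fit pooled over the 4 groups. All 12 columns were used.

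limma 3.58.1 under R 4.3.3 (eBayes with a trend) was fitted to log2(normalized count + 1), a scale that understates changes of low genes, for genes with a mean of at least 10 in the 12 libraries. The fit held 4 group means and no covariate. Adjusted p-values are Benjamini-Hochberg over 13404 genes, and DEGs needed a fold change above 1.5 with unadjusted p below 0.05. The comparisons share libraries and are not independent. The study used DESeq2 for its DEGs. Here DESeq2 1.42.0 and edgeR 4.0.16 were run on the whole reads as alternatives, next to pseudocounts of 0.5 and 5, other filters (none, or a mean of 50), a fit of only the groups compared, scaling to the 75th percentile, array weights, a block for the replicate number, the lymphocyte score as covariate, each library left out in turn, and a threshold on the adjusted p. On simulated reads with 3-fold changes between the cold-exposed genotypes, limma called 191 of 200 changed genes and 1.91% of 13208 unchanged ones among 13408 genes. The simulated reads held no cold effect and no shared shift of cell types. Smaller fold changes were not simulated, so these rates do not carry over to the transporter results.

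The members, lists and tests were chosen with earlier results of these data known. Named genes are the 8 members, Atf4, the 3 genes most alike each member, and those of the transporter and mTORC1 lists that passed the DEG threshold, with an adjusted p under 0.05 where the comparison is cold against RT, at most 6 per list and comparison. Positions and exon lengths came from GENCODE vM21 (GRCm38) and promoters from RefSeq (GRCm38.p6).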

Additional observations from a re-analysis of the deposited data

How the results depend on the processing

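Of 720 alternative values of single genes, 646 kept their direction and their side of the DEG threshold, 23 lost the call, 9 gained it and 42 changed sign. The number of the 8 genes past the DEG threshold between genotypes after cold went from 2 to 0 with the lymphocyte score as a covariate and to 0 with a threshold on the adjusted p, and at RT it went from 1 to 0 with array weights and to 0 with the adjusted p. Without 1 library it was 0 to 1 at RT and 0 to 1 for the difference of the cold responses, where Slc7a1 passed without Atf4WT RT replicate 2 (-0.81) and Slc7a5 without Atf4AKO cold replicate 0 (-1.17). The cause of these changes was not tested.

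Sign changes were mostly of values near 0. With array weights the log2 fold changes became 0.0926 (Slc7a1, Atf4WT cold), 0.0416 and 0.0193 (Slc7a5 and Slc1a5, Atf4AKO cold), -0.0075 and -0.0137 (Slc7a10 and Slc1a5, genotypes at RT), and 0.0871 and -0.136 (Slc38a2 and Slc1a4, difference of the cold responses). With the lymphocyte score they became 0.261 (Slc1a5, Atf4WT cold), 0.0519 (Slc7a5, Atf4AKO cold) and -0.222, 0.136 and -0.291 (Slc3a2, Slc7a1 and Slc1a5, genotypes after cold). The differences of the cold responses became 0.0314 (Slc7a5), -0.164 (Slc3a2), 0.487 (Slc7a1), -0.0213 (Slc7a10), -0.303 (Slc1a4) and -0.337 (Slc1a5). Without 1 library the ranges that crossed 0 were -0.154 to 0.167 (Slc7a1) and -0.247 to 0.0154 (Slc1a5) for Atf4WT cold, and -0.349 to 0.323 (Slc7a5) and -0.0858 to 0.112 (Slc1a5) for Atf4AKO cold. Between genotypes at RT they were -0.137 to 0.0529 (Slc3a2), -0.146 to 0.0218 (Slc7a6), -0.0683 to 0.158 (Slc7a10) and -0.0485 to 0.149 (Slc1a5), and for the difference of the cold responses -0.111 to 0.0758 (Slc38a2), -0.0763 to 0.256 (Slc1a4) and -0.0156 to 0.247 (Slc1a5).

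The replicate numbers did not meet the condition set for pairing, a correlation above 0.1 in every pair with the same number. Deviations from the group means correlated between -0.19 and 0.39 in 18 pairs with the same number, 9 of them above 0.1 (median 0.097), among which were all 6 pairs of replicate 1 (0.18 to 0.39). In 36 pairs with other numbers they lay between -0.47 and 0.31, 9 of them above 0.1 (median -0.043), and 6 of 12 libraries correlated best with their own number. With the number as a block, the genes of the 8 past the DEG threshold were 5 and 6 for cold in Atf4WT and Atf4AKO iWAT, and 2, 1 and 0 for the genotypes after cold, at RT and the difference of the cold responses. Slc1a4 in Atf4WT cold then had an adjusted p of 0.0585, so that 4 of 8 genes in place of 5 were under 0.05 there. Over all tested genes, DEGs between genotypes after cold were 858 with limma, 221 with the lymphocyte score, 926 with the block and 910 with DESeq2, and an adjusted p under 0.05 was reached by 4 genes, 189 with the block and 591 with DESeq2. At RT there were 62 DEGs (24 higher), 29 with a mean of at least 50, 135 (23 higher) with edgeR and 110 with DESeq2, and for the difference of the cold responses 621, and 338 with the lymphocyte score. With 3 libraries per group, Slc7a5, Slc7a1 and Slc1a4, at 29 to 393 reads per library, had the widest intervals.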
